A study of Mus musculus with 8 samples.

Results

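The 10 genes described here encode amino acid transporters, out of 54838 gene identifiers counted in 8 RNA-seq libraries of mouse splenic natural killer (NK) cells. They are *Slc7a5*, *Slc3a2*, *Slc7a1*, *Slc7a3*, *Slc7a6*, *Slc7a11*, *Slc1a4*, *Slc1a5*, *Slc6a9* and *Slc38a2*. They were chosen by name, with the counts of this same comparison in view, so their difference between the groups is given as a description and carries no test. Of the libraries, 4 (teNK) came from MMTV-PyMT mice, which the series design calls tumour-bearing. In these mice the polyoma middle T oncogene is driven by the mouse mammary tumour virus promoter, which is active in mammary epithelium. The other 4 (hNK) are from wild-type FVB/n mice, described as healthy. In both groups the spleen cells were sorted as CD45+/CD49b+/CD3- and were then held for 12 to 16 h in medium with added cytokines before RNA extraction, so no library shows cells straight from the animal. Ages, the cytokines, the strain of the MMTV-PyMT mice and the number of animals per library are not stated in the sources used here, so the spread between libraries of a group, and any p-value built on it, may be technical.

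Reads on genes ranged from 13111043 to 16209895 in teNK and from 5202131 to 12419324 in hNK, with hNK replicates 3 and 4 the shallowest. The labels of the 4 teNK libraries alone mention technical replicates of the raw data, for replicates 1 and 4 as runs in separate lanes, and this layout and the group cannot be told apart. Values are in CPM, a gene's reads scaled to the library's total on tested genes after TMM, a correction for differences in library make-up. All 12 NK marker genes had reads in both groups, and their summed level was 13774 to 14220 CPM in teNK and 7560 to 8858 CPM in hNK. Of these, 10 were called higher in teNK and 1 lower, where 26.4% of all genes tested were higher and 25.6% lower. The largest part of both sums was *Ptprc*, which encodes CD45, at 5210 to 5467 CPM in teNK and 3385 to 3688 CPM in hNK. *Eomes* went the other way, at 603 to 674 CPM in teNK and 740 to 831 CPM in hNK. Of 15 platelet markers, 13 were called higher in teNK, where 26.4% of all genes tested were, with summed levels of 404 to 666 CPM in teNK and 101 to 139 CPM in hNK. Most of the hNK sum was *Itgb3*, at 68.3 to 88.8 CPM in teNK and 78.4 to 107 CPM in hNK, whereas *Thbs1* had 10545 reads in teNK and 28 in hNK, and *Vwf* 2284 in teNK and 19 in hNK. Of 12 B cell markers, 11 were called higher in teNK, with sums of 145 to 181 CPM in teNK and 88.3 to 131 CPM in hNK. Most of these sums was *Ighm*, at 87.7 to 104 CPM in teNK and 80.3 to 119.96 CPM in hNK, whereas *Cr2* was at 11.6 to 18.8 CPM in teNK and 0 to 0.330 CPM in hNK, and *Pax5* had 398 reads in teNK and 12 in hNK. Myeloid markers summed to 157 to 178 CPM in teNK and 25.5 to 39.8 CPM in hNK, most of it *Itgam*, which NK cells also express. *Lyz2* was at 4.97 to 9.41 CPM in teNK and 0.165 to 0.915 CPM in hNK. *S100a8* and *S100a9* had 68 and 82 reads in teNK and 0 in hNK, whereas *Cd68* overlapped, at 4.13 to 5.06 CPM in teNK and 3.34 to 5.07 CPM in hNK. T cell markers summed to 259 to 275 CPM in teNK and 273 to 314 CPM in hNK, most of it *Trbc1*. Of 7 tested, 1 was called higher in teNK and 2 lower, beside 26.4% and 25.6% of all genes tested. *Cd3g* had 1291 reads in teNK and 660 in hNK, and *Cd3d* 275 in teNK and 74 in hNK. *Cd6* went the other way, with 6 reads in teNK and 84 in hNK. *Cd4* and *Cd8a* had 2 and 1 reads in teNK and 2 and 0 in hNK. Erythroid markers summed to 2.73 to 10.9 CPM in teNK and 0 to 0.542 CPM in hNK, and mammary epithelial markers to 0.994 to 2.04 CPM in teNK and 16.98 to 23.3 CPM in hNK, with no read for 6 of the 9 mammary genes in teNK and for 6 in hNK. Nearly all of the hNK mammary sum was 2 adhesion genes. *Cdh1* was at 0.535 to 1.18 CPM in teNK and 13.0 to 18.9 CPM in hNK, and *Epcam* at 0.254 to 0.658 CPM in teNK and 3.97 to 4.45 CPM in hNK. The part that other cells play in the values of the transporter genes was not tested.

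Amino acids do not cross membranes freely, and carriers of the solute carrier (SLC) families bring them in, many by exchanging one amino acid for another. Light chains of the SLC7 family are brought to the surface by a shared heavy chain, the CD98 protein encoded by *Slc3a2*, whereas the sodium-coupled carriers of the SLC1, SLC6 and SLC38 families work without it. In lymphocytes stimulated by cytokines or antigen, *Slc7a5* and *Slc1a5* are known to supply the leucine and glutamine that sustain mTORC1 signalling and MYC protein. When amino acids run short, the transcription factor ATF4 is known to induce several of these carrier genes together with enzymes such as asparagine synthetase.

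All 10 transporter genes were lower in teNK than in hNK, with no overlap between the libraries of the groups, over a range from a slightly lower level of *Slc7a6* to a nearly complete lack of *Slc1a4*, *Slc6a9* and *Slc7a3* reads. *Slc7a11* had few reads in both groups, 0 in teNK and 24 in hNK, so its lack of overlap rests on very low counts. Summed over the 10 genes, the level was 734 to 774 CPM in teNK and 1706 to 1939 CPM in hNK. A filter on low counts was passed by 9 of the 10, and *Slc7a11* did not pass it. Over all 13903 genes tested, 25.6% were called lower in teNK (edgeR quasi-likelihood test, Benjamini-Hochberg adjusted p under 0.05), 26.4% higher and 51.9% in either direction. Libraries of the groups did not overlap, with teNK lower, in 22.4% of genes tested. Since the 10 genes were picked with these values in view, nothing is read from their lack of overlap. The 9 genes had a median log2 fold change of -1.97 (teNK over hNK), against -0.02 over all genes tested. With library totals alone as scaling, the median over all genes moved to -0.15, and the calls over all genes were 2709 higher and 5114 lower, against 3665 and 3557 with TMM. In bulk RNA, a lower share of expressing cells and less RNA per cell cannot be told apart.

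**Figure D1:**
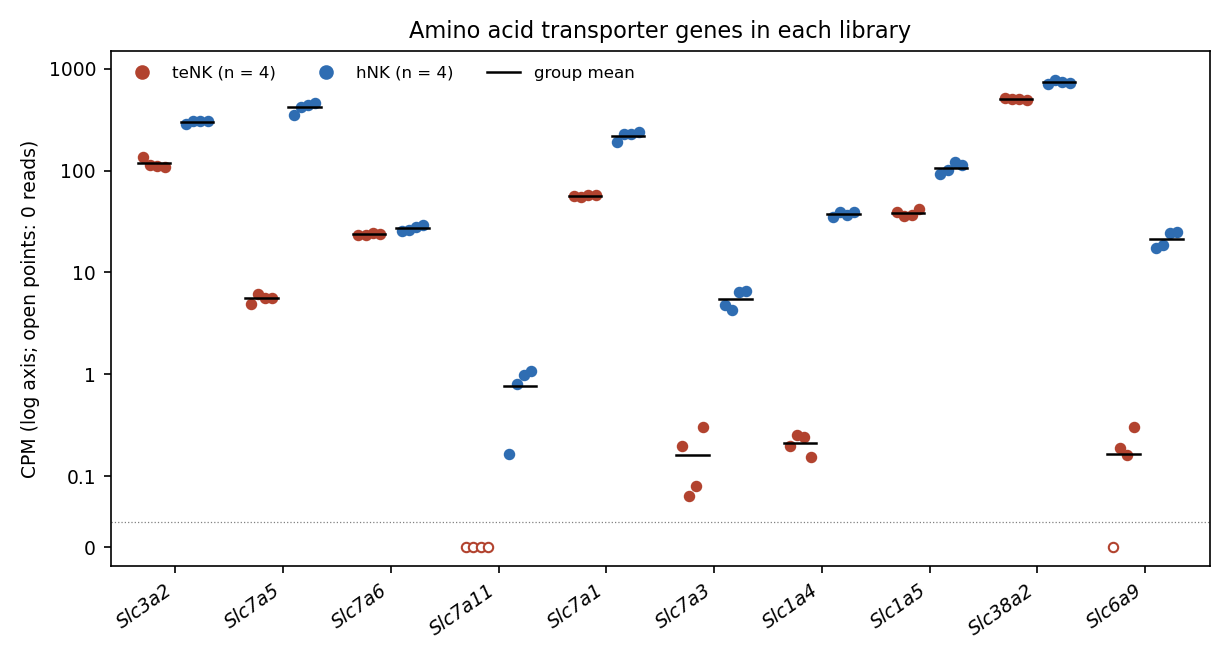
CPM of each transporter gene in each library on a log axis, with teNK (red) left of hNK (blue), group means as black lines and libraries with 0 reads as open points below the dotted line. The gap between the groups is widest for *Slc7a5*, *Slc1a4* and *Slc6a9* and narrowest for *Slc7a6*, for which teNK libraries reach 24.4 CPM and hNK libraries begin at 25.5 CPM.

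Promoter sequence was examined because ATF4 binds a known amino acid response element in several carrier genes. RefSeq windows on GRCm38.p6, from 250 bases before to 50 after a transcript start, were present for 7 of the 10 genes (11 windows), and those of *Slc7a5*, *Slc7a3* and *Slc1a5* were not among them. The letters TGATGNAAN, searched on both strands, were found in the windows of 2 genes, *Slc1a4* and *Slc7a11*, and in 3.95% of all 32851 windows. In *Slc7a11* (chr3:50443564-50443863, minus strand) the motif occurred in 2 copies, on opposite strands, beginning 66 and 48 bases before the start. In *Slc1a4* (chr11:20332664-20332963, minus strand) it occurred once, 5 bases before the start. These 2 promoters are printed as the places where the motif was found, 5′ to 3′ on the strand of the gene, with its bases in capitals.
Slc1a4: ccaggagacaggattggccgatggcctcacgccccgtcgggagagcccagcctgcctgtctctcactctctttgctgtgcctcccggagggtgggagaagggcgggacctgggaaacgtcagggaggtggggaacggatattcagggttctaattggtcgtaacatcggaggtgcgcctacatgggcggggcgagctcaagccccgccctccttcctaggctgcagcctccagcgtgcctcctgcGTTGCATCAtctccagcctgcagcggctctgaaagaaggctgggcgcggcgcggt
Slc7a11: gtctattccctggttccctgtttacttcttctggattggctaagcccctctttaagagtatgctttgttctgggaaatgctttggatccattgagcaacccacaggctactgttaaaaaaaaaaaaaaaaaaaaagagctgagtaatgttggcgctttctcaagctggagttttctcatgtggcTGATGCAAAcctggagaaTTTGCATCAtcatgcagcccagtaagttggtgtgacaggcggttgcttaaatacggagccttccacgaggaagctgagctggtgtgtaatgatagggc
For comparison, the sites in *Asns* (chr6:7693214-7693242, minus strand), *Trib3* (chr2:152344029-152344057, minus strand) and *Chac1* (chr2:119351038-119351066, plus strand), genes of the ATF4 response, are printed with 10 bases on either side.
Asns: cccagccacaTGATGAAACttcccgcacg
Trib3: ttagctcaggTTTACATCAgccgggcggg
Chac1: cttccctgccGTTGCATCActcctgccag
Of 20 ATF4 response genes with a window, 6 held the motif. The antioxidant response element, TGACNNNGC on either strand, was found in 4 of the 7 genes, *Slc38a2*, *Slc6a9*, *Slc7a1* and *Slc7a6*, and in 13.99% of all genes with a window. By window, it was found in 6 of the 11 and in 12.4% of all. The E-box CACGTG was in none of the 11 windows, against 7.15% of all. A match is a string of letters in this window and was not tested for binding.

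The heavy chain and its light chains differed widely in how far apart the groups were. *Slc3a2* (ENSMUSG00000010095, GRCm38 chromosome 19, 8706882 to 8723369), the heavy chain, measured 137, 113, 111 and 109 CPM in teNK replicates 1 to 4, against 288, 307, 308 and 305 CPM in hNK replicates 1 to 4. Its mean was 118 ± 13.1 CPM in teNK and 302 ± 9.44 CPM in hNK (SD, n = 4 each), a log2 fold change of -1.36 ± 0.07 (SE). The groups did not overlap, and teNK replicate 1 stood above the other 3.

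*Slc7a5* (ENSMUSG00000040010, chromosome 8, 121881150 to 121907694) encodes LAT1, the exchanger for leucine and other large neutral amino acids. It measured 4.94, 6.16, 5.62 and 5.66 CPM in the teNK libraries, against 353, 419, 439 and 458 CPM in the hNK libraries. Means of 5.59 ± 0.502 CPM in teNK and 417 ± 45.4 CPM in hNK (SD, n = 4 each) gave a log2 fold change of -6.22 ± 0.11 (SE), a 74.3-fold lower level. In hNK it was 1 of the 3 most abundant transporter genes per length, and in teNK its 70 to 97 reads per library still left it well above the floor of 3 counts, which was 0.190 to 0.241 CPM in teNK and 0.238 to 0.542 CPM in hNK. Floors and intervals cover counting error only.

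*Slc7a6* (ENSMUSG00000031904, chromosome 8, 106168857 to 106198706) encodes the light chain of an exchanger of cationic for neutral amino acids, and its levels were the closest between groups. It measured 23.1, 23.4, 24.4 and 23.7 CPM in teNK and 25.5, 25.8, 28.0 and 29.4 CPM in hNK. Means were 23.7 ± 0.562 CPM in teNK and 27.2 ± 1.87 CPM in hNK (SD, n = 4 each), a log2 fold change of -0.19 ± 0.08 (SE). The libraries did not overlap, but the gap was narrow. Over 18 alternative settings, its log2 fold change ranged from -0.32 with library totals alone to -0.12 with thinning to the smallest library.

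*Slc7a11* (ENSMUSG00000027737, chromosome 3, 49892526 to 50443614) encodes xCT, the cystine and glutamate exchanger that feeds glutathione synthesis. It had no read in any teNK library and 2, 10, 6 and 6 reads in hNK replicates 1 to 4, or 0.166, 0.794, 0.990 and 1.08 CPM. Against a floor of 3 counts per teNK library it was at least 3.54-fold lower in teNK. Its reads were few in both groups, and hNK replicate 1 was itself under its floor.

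Per kilobase of merged exons, the measure used here to compare levels between genes, *Slc7a5* mRNA stood at 0.0342, 0.0517, 0.0482 and 0.0492 per *Slc3a2* mRNA in teNK replicates 1 to 4, against 1.17, 1.30, 1.36 and 1.43 in hNK replicates 1 to 4. *Slc7a6* mRNA per *Slc3a2* mRNA was 0.130 to 0.170 in teNK and 0.0649 to 0.0746 in hNK. Relative to the heavy chain, *Slc7a6* was thus higher in teNK while *Slc7a5* was lower. Among the light chain genes that pair with *Slc3a2* (*Slc7a5*, *Slc7a6*, *Slc7a7*, *Slc7a8*, *Slc7a10* and *Slc7a11*), *Slc7a5* made up 19.99% ± 1.37 of the summed level in teNK and 93.9% ± 0.464 in hNK (SD, n = 4 each). *Slc7a6* made up 68.7% ± 1.31 in teNK and 4.99% ± 0.328 in hNK. The most abundant light chain mRNA was therefore *Slc7a6* in all 4 teNK libraries and *Slc7a5* in all 4 hNK libraries. All listed light chains together came to 0.228 ± 0.0277 per *Slc3a2* in teNK and 1.40 ± 0.112 in hNK. With the longest annotated transcript as length, *Slc7a5* per *Slc3a2* was 0.0385 in teNK and 1.10 in hNK.

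**Figure D2:**
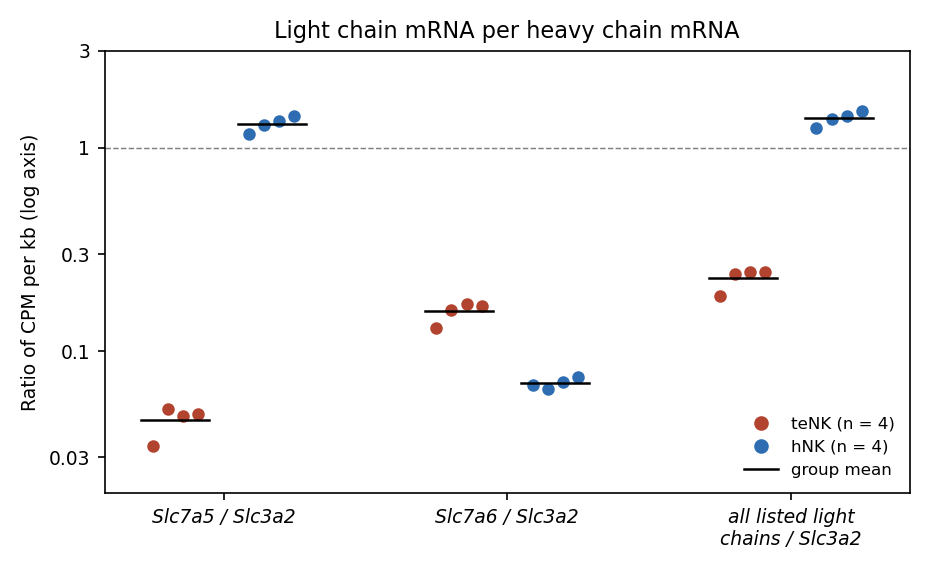
Ratio of light chain to *Slc3a2* CPM per kilobase in each library on a log axis, with teNK (red) left of hNK (blue), group means as black lines and equal levels as the dashed line. *Slc7a5* per *Slc3a2* is 0.0342 to 0.0517 in teNK and 1.17 to 1.43 in hNK, while *Slc7a6* per *Slc3a2* is higher in teNK.

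The cationic amino acid carriers bring in arginine and lysine and need no heavy chain. *Slc7a1* (ENSMUSG00000041313, chromosome 5, 148327410 to 148399904), the widely expressed member CAT-1, measured 55.8, 54.9, 57.3 and 57.0 CPM in teNK, against 189.6, 227, 226 and 238 CPM in hNK. The means were 56.2 ± 1.12 CPM in teNK and 220.4 ± 21.2 CPM in hNK (SD, n = 4 each), a log2 fold change of -1.97 ± 0.07 (SE). The teNK libraries differed from each other by less than their counting error, and hNK replicate 1 was the lowest of its group.

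*Slc7a3* (ENSMUSG00000031297, chromosome X, 101079210 to 101086020), the related carrier CAT-3, had 3, 1, 1 and 4 reads in teNK and 58, 54, 39 and 36 reads in hNK, or 0.197, 0.0635, 0.0803 and 0.306 CPM in teNK and 4.82, 4.29, 6.43 and 6.50 CPM in hNK. Pooled over libraries, hNK over teNK gave a ratio of 32.4 (95% Clopper-Pearson interval 16.7 to 72.0). *Slc7a2* (CAT-2), a carrier outside the 10 genes, had no read in teNK and 49 in hNK, at least 6.12-fold lower in teNK at a floor of 3 counts per library. Per length, *Slc7a1* made up 99.1% ± 0.591 of these 3 carriers in teNK and 92.3% ± 0.947 in hNK (SD, n = 4 each), so it was the most abundant of these 3 in both groups.

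The neutral amino acid carriers of the SLC1 family were split. *Slc1a5* (ENSMUSG00000001918, chromosome 7, 16781340 to 16798274) encodes ASCT2, a carrier of glutamine. It measured 39.5, 35.7, 36.6 and 42.1 CPM in teNK and 91.7, 101, 120.2 and 114 CPM in hNK. The log2 fold change was -1.47 ± 0.09 (SE), from means of 38.5 ± 2.91 CPM in teNK and 107 ± 12.8 CPM in hNK (SD, n = 4 each). The groups did not overlap.

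*Slc1a4* (ENSMUSG00000020142, chromosome 11, 20302180 to 20332713) encodes ASCT1, a carrier of alanine, serine and cysteine, and was nearly absent from teNK. It had 3, 4, 3 and 2 reads in teNK, or 0.197, 0.254, 0.241 and 0.153 CPM, against 35.3, 39.5, 36.9 and 39.2 CPM in hNK. The teNK values lay at about the floor of 3 counts. The pooled ratio of hNK over teNK was 177 (95% Clopper-Pearson interval 101 to 344). Per length, *Slc1a4* made up 0.590% ± 0.166 of *Slc1a4* and *Slc1a5* together in teNK and 27.4% ± 2.21 in hNK (SD, n = 4 each).

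*Slc38a2* (ENSMUSG00000022462, chromosome 15, 96687392 to 96699730) encodes SNAT2, a sodium-coupled carrier of small neutral amino acids such as alanine, serine and glutamine. It measured 513, 507, 501 and 495 CPM in teNK and 699.6, 772, 748 and 723 CPM in hNK, with a log2 fold change of -0.54 ± 0.06 (SE). The groups did not overlap although the fold was small.

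*Slc6a9* (ENSMUSG00000028542, chromosome 4, 117834506 to 117875198) encodes GlyT1, a sodium- and chloride-coupled carrier of glycine. It had 0, 3, 2 and 4 reads in teNK and 211, 233, 146 and 137 reads in hNK, or 0, 0.190, 0.161 and 0.306 CPM in teNK and 17.5, 18.5, 24.1 and 24.8 CPM in hNK. The pooled ratio of hNK over teNK was 126 (95% Clopper-Pearson interval 66.0 to 277). It was the only 1 of the 10 genes whose annotated exons overlap those of another gene. Its partners *Ccdc24*, *B4galt2* and *Gm17114* lie on the opposite strand and had at most 5 reads in any library, and the strand setting of the counting is not given.

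The order of the 10 genes by level per length differed between the groups. In teNK, *Slc38a2* was highest with 57.0 ± 0.890 CPM per kilobase, followed by *Slc3a2* with 33.4 ± 3.70, *Slc1a5* with 9.22 ± 0.698, *Slc7a6* with 5.18 ± 0.123, *Slc7a1* with 4.88 ± 0.0973 and *Slc7a5* with 1.51 ± 0.135 (SD, n = 4). Neighbours in that order had libraries that did not overlap. Below them *Slc1a4*, *Slc7a3* and *Slc6a9*, at 0.0319 to 0.0538 CPM per kilobase, overlapped with each other, and *Slc7a11* was at 0, as was *Slc6a9* in teNK replicate 1. In hNK, *Slc7a5* was highest with 113 ± 12.2 CPM per kilobase, followed by *Slc3a2* with 85.6 ± 2.68 and *Slc38a2* with 83.2 ± 3.51 (SD, n = 4), and the last 2 overlapped. *Slc1a5* followed with 25.6 ± 3.07, *Slc7a1* with 19.1 ± 1.84, *Slc1a4* with 9.62 ± 0.506, *Slc7a6* with 5.95 ± 0.409, *Slc6a9* with 4.13 ± 0.724, *Slc7a3* with 1.46 ± 0.298 and *Slc7a11* with 0.0545 ± 0.0297, none overlapping with its neighbour. With the longest transcript as length, the hNK order began with *Slc38a2*, then *Slc7a5*, then *Slc3a2*, and *Slc7a1* stood above *Slc7a6* in teNK.

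**Figure D3:**
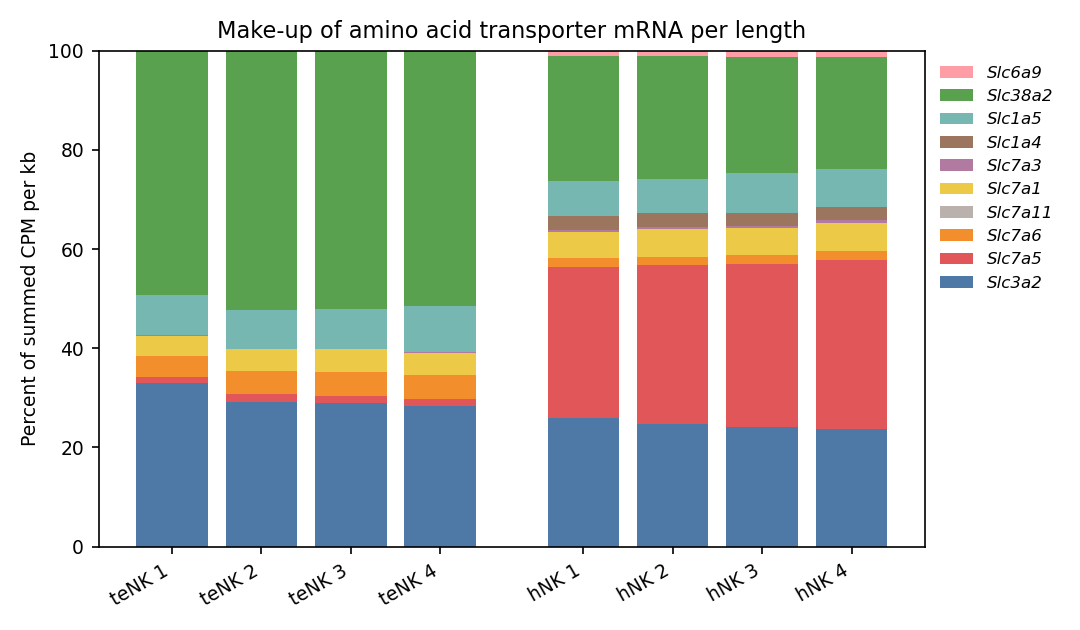
Percent that each gene contributed to the summed CPM per kilobase of the 10 genes in each library, teNK on the left and hNK on the right. *Slc7a5* makes up 1.13% to 1.51% in teNK and 30.4% to 34.0% in hNK, and *Slc38a2* makes up 49.3% to 52.3% in teNK and 22.6% to 25.2% in hNK.

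As shares of the summed level per length, *Slc38a2* made up 51.3% ± 1.36 in teNK and 24.0% ± 1.23 in hNK, and *Slc7a5* 1.36% ± 0.162 in teNK and 32.3% ± 1.52 in hNK (SD, n = 4 each). *Slc3a2* held 29.9% ± 2.097 in teNK and 24.7% ± 0.954 in hNK, and *Slc1a5* 8.29% ± 0.659 in teNK and 7.36% ± 0.505 in hNK. The make-up of the transporter mRNA thus differed mostly in *Slc7a5* and *Slc38a2*. The sum itself was 111 ± 4.31 CPM per kilobase in teNK and 347 ± 22.8 in hNK.

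Within groups the spread differed between genes. The coefficient of variation of *Slc38a2* was 1.56% in teNK and 4.22% in hNK, and that of *Slc7a1* was 1.994% in teNK and 9.63% in hNK. For *Slc7a5* it was 8.98% in teNK, where counting alone gives 11.3%, and 10.9% in hNK, where counting alone gives 1.71%. The spread of *Slc7a5* in teNK was thus no more than counting error, and that in hNK was above it. For *Slc3a2* it was 11.1% in teNK, where counting alone gives 2.47%, and 3.13% in hNK, and for *Slc1a5* 7.57% in teNK and 11.99% in hNK. Counting error was largest for the genes with few teNK reads, at 76.9% in teNK and 14.9% in hNK for *Slc7a3* and 59.05% in teNK and 5.70% in hNK for *Slc1a4*. Of the 10 genes, 9 were lowest in replicate 1 among the hNK libraries, and *Slc7a3* was lowest in replicate 2. hNK replicate 1 also had the largest share of reads on no gene, 41.2%, against 32.3% to 38.4% in the other 3, and what part that plays was not tested. No teNK library was lowest for more than 4 of the 10 genes.

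Of the 190 *Slc* genes of every kind that were tested, the 5 with the most negative fitted log2 fold change were *Slc1a4*, *Slc6a9*, *Slc7a5*, *Slc7a3* and *Slc7a2*. No order among them is given, since all but *Slc7a5* were at or near the floor in teNK. *Slc7a1* was in place 8, *Slc1a5* in place 9, *Slc3a2* in place 11, *Slc38a2* in place 36 and *Slc7a6* in place 66. Among the 181 tested *Slc* genes other than the 10, 47 rose and 44 fell in teNK, with a median log2 fold change of 0.04. These places describe the choice of the genes and are no test of it.

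Other amino acid carriers were followed for comparison. Of 36 further carriers of the cell surface, 28 did not pass the filter on low counts and had at most 29 reads over the 8 libraries. Of the 8 tested, 6 fell in teNK, 1 rose and 1 was not called, where 25.6% of all genes tested fell and 26.4% rose, with a median log2 fold change of -0.65, against -0.02 over all genes tested. The 6 include *Slc7a2*, which had no read in teNK and passed the filter only through its hNK reads, so nothing is read from its call. *Slc16a10*, a carrier of aromatic amino acids, fell to 3.795 ± 0.360 CPM in teNK, against 10.03 ± 0.912 CPM in hNK (SD, n = 4 each; edgeR adjusted p = 6.34e-07). *Slc38a1*, a glutamine carrier related to *Slc38a2*, fell to 209 ± 6.12 CPM in teNK, against 294 ± 25.9 CPM in hNK, a log2 fold change of -0.49 ± 0.07 close to the -0.54 of *Slc38a2*. *Slc43a2*, an LAT-type carrier that needs no heavy chain, rose to 25.2 ± 1.76 CPM in teNK, against 17.1 ± 1.18 CPM in hNK (edgeR adjusted p = 0.0001). *Slc3a1*, a heavy chain that pairs with other light chains, fell to 2.17 ± 0.369 CPM in teNK, against 4.61 ± 1.94 CPM in hNK, with libraries that overlapped. Among 20 tested carriers of lysosomes and mitochondria, 4 rose, 6 fell and 10 were not called, shares near the 26.4% and 25.6% over all genes tested, with a median log2 fold change of -0.09. *Slc38a7*, a lysosomal glutamine and asparagine exporter, fell by 1.30 ± 0.11 and *Ctns*, the cystine exporter of lysosomes, fell by 0.49 ± 0.10 on the log2 scale. *Slc25a15*, a mitochondrial ornithine carrier, fell by 0.87 ± 0.15 and *Slc25a29*, a mitochondrial carrier of basic amino acids, fell by 0.91 ± 0.26, while *Sfxn3*, a sideroflexin, rose by 0.53 ± 0.06. The 4 that rose became 2 without teNK replicate 3, hNK replicate 2 or hNK replicate 4.

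**Figure D4:**
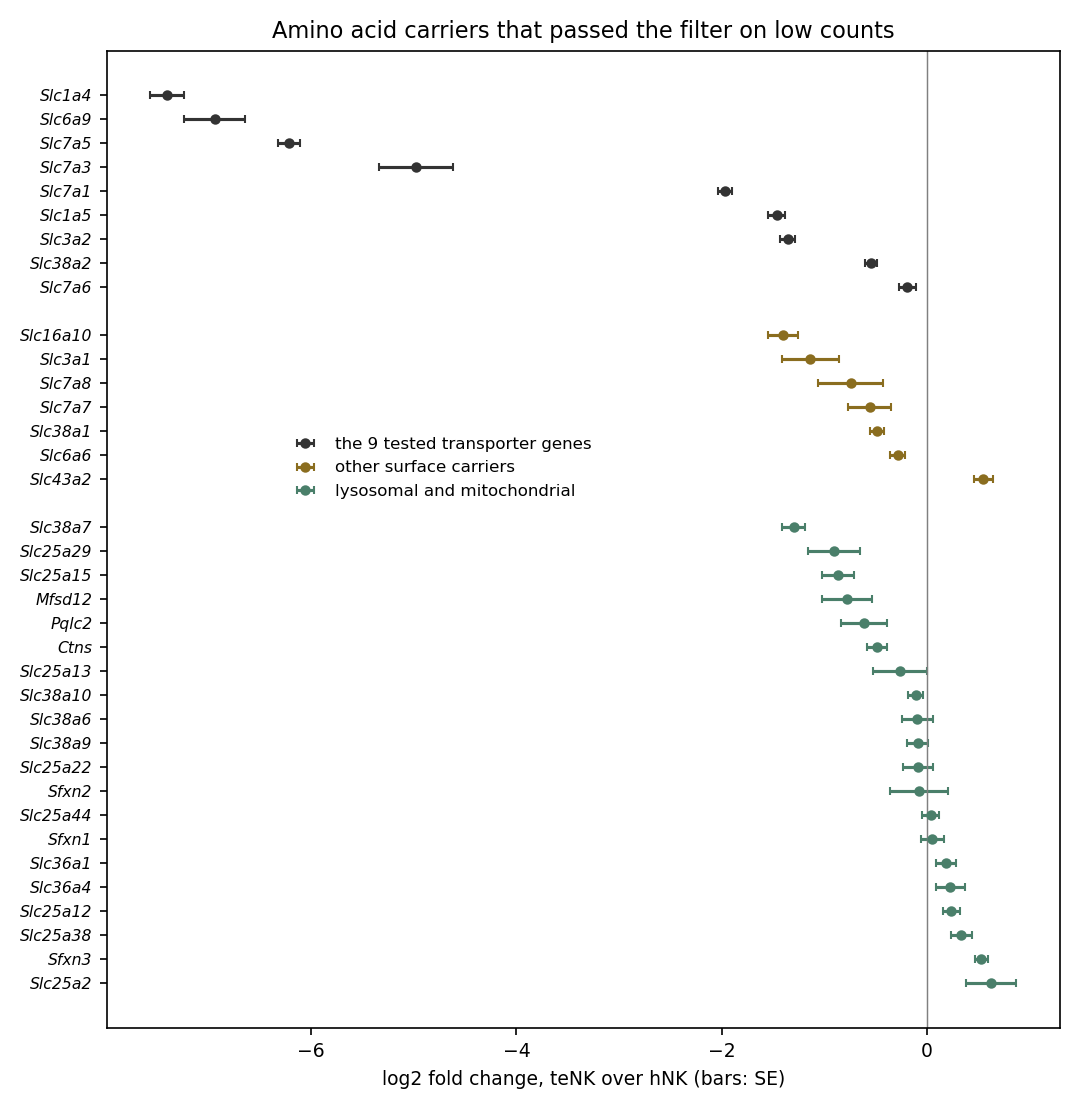
Log2 fold changes of teNK over hNK with SE for the 9 tested transporter genes, 7 of the 8 tested other surface carriers (*Slc7a2*, with no read in teNK, is not drawn) and 20 carriers of lysosomes and mitochondria. *Slc7a3* (-4.98), *Slc7a5* (-6.22), *Slc6a9* (-6.94) and *Slc1a4* (-7.40) lie far to the left, while the lysosomal and mitochondrial carriers lie between -1.30 and 0.63. *Slc7a3*, *Slc6a9* and *Slc1a4* were at or near the floor in teNK, so their fitted values and their order are uncertain.

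Of 21 tested genes of the ATF4 response and its regulators, 15 fell in teNK and 2 rose, where 25.6% of all genes tested fell and 26.4% rose. The median of their log2 fold changes was -0.89, against -0.02 over all genes. The 2 that rose became 1 without teNK replicate 1 or 3. *Atf4* itself fell to 207 ± 21.6 CPM in teNK, against 384 ± 16.2 CPM in hNK (edgeR adjusted p = 3.61e-08). *Asns*, asparagine synthetase, fell to 0.791 ± 0.162 CPM in teNK, against 102 ± 19.5 CPM in hNK. *Trib3*, a pseudokinase that restrains ATF4, had 5 reads in teNK and 1954 in hNK, a ratio of hNK over teNK of 609 (95% Clopper-Pearson interval 261 to 1879). *Atf5*, a related factor, fell by 3.07 ± 0.15 and *Eif4ebp1*, a translation repressor, fell by 2.62 ± 0.13 on the log2 scale. *Ppp1r15a* (GADD34), which lifts the translation block of the stress response, rose to 154 ± 19.8 CPM in teNK, against 31.3 ± 1.44 CPM in hNK. Of other known regulators of the carriers, *Myc* fell to 78.9 ± 6.84 CPM in teNK, against 116 ± 25.1 CPM in hNK (edgeR adjusted p = 0.000928), and *Nfe2l2* (NRF2) to 119 ± 8.82 CPM in teNK, against 165 ± 14.005 CPM in hNK. *Myc* was at 91.7 and 98.4 CPM in hNK replicates 1 and 2 and at 132 and 143 CPM in the shallower replicates 3 and 4. Its log2 fold change was -0.54 over all libraries and -0.28 with hNK replicates 1 and 2 alone. *Hif1a* and *Srebf1* were not called, with log2 fold changes of -0.07 ± 0.08 and -0.03 ± 0.06.

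Likeness to the transporter genes was measured as the Euclidean distance of log2 CPM (prior count 2), centred on each gene, over the 8 libraries, among 9237 genes whose log2 CPM averaged 2 or more. The gene nearest to *Slc7a5* was *Pmepa1* (distance 0.616), followed by *Asns* (0.856) and *Gpt2* (1.40). *Asns* had 45 and *Gpt2* 31 reads over all teNK libraries, so the prior count also shifts these 2 distances. The nearest to *Slc7a1* were *Hspa9* (0.121), *Aldh18a1*, a proline synthesis enzyme, and *Iars*, an aminoacyl-tRNA synthetase. The nearest to *Slc1a5* were *Gsto1* (0.219) and the synthetase genes *Nars* and *Eprs*. The nearest to *Slc3a2* were *Rcbtb2* (0.206), *Gabarapl1* and *Slc16a10*. The nearest to *Slc38a2* were *Zfp507* (0.0859), *Tab2* and *Exoc3*, and the nearest to *Slc7a6* were *Scyl2* (0.0804), *Faf2* and *Srp19*. No nearest genes are given for *Slc1a4*, *Slc6a9* and *Slc7a3*, since at their few teNK reads the prior count largely sets the log2 CPM. The points share libraries that fall into 2 groups, so the distances are a description.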

How the data were processed

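The 4 teNK and 4 hNK libraries hold stranded mRNA sequencing of spleen NK cells. The authors deposited whole-number read counts per Ensembl gene for each library, without normalization. Per the submitters' processing notes, HISAT2 2.1.0, SAMtools and HTSeq were used with GRCm38; settings are not stated. Symbols, coordinates and exon lengths came from GENCODE M21 on GRCm38, which matched 54809 of 54838 identifiers. The 5 summary lines of each file, 34.2% to 43.0% of its reads, stayed out of library sizes. In edgeR 4.0.16 (R 4.3.3), genes were kept with filterByExpr (13903), scaled with TMM and tested by group with the quasi-likelihood F test, with Benjamini-Hochberg adjustment over all genes and a threshold of 0.05. Genes with almost no teNK reads, such as *Slc7a2*, *Trib3*, *Pycr1* and *Nqo1*, passed the filter through hNK alone. Counts of genes called lower include such genes. The SE of a log2 fold change was its size over the square root of F. Where teNK had 1 to 12 reads, the ratio of pooled reads is given with an exact Clopper-Pearson interval, and where it had none, the floor of 3 counts per library was used. Levels per kilobase used merged exons. The script was tested on simulated counts.

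The transporter genes, the comparison lists, the rule for genes named (all 10, then up to 5 per list by smallest adjusted p, and 5 regulators) and the alternatives were chosen with earlier results of these data known. Other named genes are overlap partners, carriers, nearest genes, markers and motif examples. Alternatives were other scalings (one with DESeq2 1.42.0), other filters, thinning, a stricter threshold, a replicate block, another gene length and leaving out each library.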

Additional observations from a re-analysis of the deposited data

Results flagged for a closer look

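Among 108 sets of 4 libraries checked for a library far from the other 3, 7 were flagged, and chance alone flags about 1 in 20. *Slc3a2* in teNK replicate 1 was high, at 137 CPM against 109 to 113 CPM in the other teNK libraries. In the same library the light chains per *Slc3a2* were low, at 0.187 against 0.239 to 0.244, and the sum of the 10 transporter genes was high, at 118 CPM per kilobase against 109 to 109.7. Over 18 alternative settings, which include leaving out each library, the log2 fold change of *Slc3a2* ranged from -1.49 to -1.32. *Slc3a2* in hNK replicate 1 was low, at 288 CPM against 305 to 308 CPM, and *Slc7a5* made up 93.2% of listed light chains there against 94.1% in each of the others. *Slc38a7* in teNK replicate 3 was low, at 9.72 CPM against 12.8 to 13.2 CPM, and *Slc25a15* in hNK replicate 3 was high, at 9.57 CPM against 7.46 to 7.65 CPM.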

How the results depend on the processing

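Over 18 alternatives, none of the 9 tested transporter genes changed direction, and *Slc7a11* was not tested. Among these 18, the stricter threshold reuses the main fit, so it cannot move a log2 fold change. The log2 fold change ranged from -7.53 to -6.86 for *Slc1a4*, -7.36 to -6.50 for *Slc6a9*, -6.35 to -6.11 for *Slc7a5*, -5.47 to -4.69 for *Slc7a3* and -0.32 to -0.12 for *Slc7a6*. One alternative, chosen after seeing the data, kept hNK replicates 1 and 2 alone, and gave *Hif1a* a log2 fold change of 0.052 in place of -0.07. In that alternative *Myc* had -0.28 in place of -0.54. Of 262 alternative values of counts and ratios, 249 stayed within 1.5 times the count or 1 SD of the ratio. With library totals alone, lysosomal and mitochondrial carriers called higher numbered 1 in place of 4, ATF4 response genes 1 in place of 2 and mTORC1 sensing genes 4 in place of 7. At an adjusted p under 0.01, the first 2 counts were again 1 and 1, and mTORC1 sensing genes called lower were 9 in place of 14. Thinned to the smallest library, lysosomal and mitochondrial carriers called lower numbered 3 in place of 6. Leaving out 1 library gave 2 to 4 such carriers called higher (2 without teNK replicate 3 or hNK replicate 2 or 4) and 1 to 3 ATF4 response genes called higher (1 without teNK replicate 1 or 3). With the longest transcript as length, *Slc7a5* per *Slc3a2* in hNK was 1.10 in place of 1.31. The cause of these shifts was not tested.

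The labels do not say whether a replicate number is shared by the groups. Deviations of same-numbered teNK and hNK libraries from their group means correlated across genes at 0.04, -0.11, 0.15 and 0.02 for numbers 1 to 4, and not every library correlated best with its own number. With so few libraries, these values cannot settle whether the numbers pair the libraries. The main test used no pairing. With a replicate block, 3581 genes were called higher and 3401 lower, against 3665 and 3557 without it. Depth limits *Slc7a11*, *Slc7a3*, *Slc1a4* and *Slc6a9*, whose teNK reads were at or near the floor, so the size of their difference is known only within the bounds given.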

Other observations

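Genes that sense and use amino acids were measured in the same libraries. Of 34 tested genes of amino acid sensing to mTORC1, the kinase complex that couples growth to amino acid supply, 7 rose and 14 fell in teNK, where 26.4% of all genes tested rose and 25.6% fell, and the median log2 fold change was -0.06, against -0.02 over all genes tested. *Lars*, the leucyl-tRNA synthetase that also senses leucine, fell to 71.5 ± 3.32 CPM in teNK, against 213 ± 29.4 CPM in hNK (SD, n = 4 each; edgeR adjusted p = 2.08e-10). *Rptor*, which encodes the Raptor subunit, rose to 147 ± 4.55 CPM in teNK, against 108 ± 5.78 CPM in hNK, and *Sesn1*, a sestrin, to 113 ± 6.70 CPM in teNK, against 77.8 ± 4.09 CPM in hNK. *Lamtor1*, of the lysosomal Ragulator scaffold, fell by 0.76 ± 0.09 and *Wdr59*, of the GATOR2 complex, fell by 0.70 ± 0.10 on the log2 scale.

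Of 25 tested enzymes of amino acid synthesis and use, 2 rose and 12 fell, beside the same 26.4% and 25.6% over all genes, and the median log2 fold change was -0.21. The enzymes named next had the smallest adjusted p and all fell, so the 2 that rose are not among them. *Shmt2*, which makes glycine from serine in mitochondria, fell to 31.1 ± 1.93 CPM in teNK, against 173 ± 14.7 CPM in hNK (edgeR adjusted p = 1.79e-13), and *Gpt2*, an alanine aminotransferase, to 0.535 ± 0.180 CPM in teNK, against 28.4 ± 4.63 CPM in hNK. *Phgdh*, the first enzyme of serine synthesis, fell by 2.55 ± 0.11 on the log2 scale. *Aldh18a1*, of proline synthesis, fell by 1.91 ± 0.07, and *Pycr1*, of the same pathway, had 3 reads in teNK and 204 in hNK, a ratio of hNK over teNK of 106 (95% Clopper-Pearson interval 35.8 to 518). Among 17 tested genes of cystine and glutathione handling, 4 rose and 13 fell, beside 26.4% and 25.6% over all genes, and the median log2 fold change was -0.86. The genes of this list named next had the smallest adjusted p and all fell, so the 4 that rose are not among them. *Gclc* and *Gclm* encode both subunits of the rate-limiting enzyme of glutathione synthesis. *Gclc* fell by 1.85 ± 0.08 and *Gclm* fell by 1.98 ± 0.08 on the log2 scale, and *Txnrd1*, a thioredoxin reductase, fell to 84.8 ± 5.75 CPM in teNK, against 369.7 ± 47.3 CPM in hNK. *Hmox1*, heme oxygenase, fell to 1.65 ± 0.360 CPM in teNK, against 46.4 ± 15.5 CPM in hNK, and *Nqo1*, a quinone reductase, had 9 reads in teNK and 898 in hNK, a ratio of 156 (81.6 to 341).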
